A study of Homo sapiens with 4 samples.

Results

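The myocyte enhancer factor 2 (MEF2) transcription factors and the class IIa histone deacetylases (HDACs) that bind them were followed in fusion-negative rhabdomyosarcoma cells after SKP2 depletion. The members were picked by gene name and are MEF2A, MEF2B, MEF2C, MEF2D, HDAC4, HDAC5, HDAC7 and HDAC9. All 8 were found among the 39323 genes of the files. The set was chosen with HDAC9 known to be among the largest rises in these libraries, so the changes of HDAC9 and its partners are a description here and carry no test.

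RD and JR1 are established lines of fusion-negative rhabdomyosarcoma, a childhood tumour with features of arrested skeletal muscle. Cells of both lines were infected with a lentivirus carrying a non-targeting hairpin (shSCR) or a hairpin against SKP2 (shSKP2). SKP2 is the substrate receptor of a ubiquitin ligase that marks cell cycle inhibitors for destruction. All cells were grown in serum-containing growth medium and, per the study's methods, infected cells were selected with puromycin, so the controls also carry a vector and its selection. There was 1 poly-A RNA library per line and condition, 4 in all, and no source used here says whether the lines are single clones or how long after infection the RNA was taken. The differences below are therefore between single libraries, without replicates and without p-values.

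MEF2 proteins bind an A/T-rich DNA element and, in muscle, work with MYOD and myogenin to switch on genes of the contractile apparatus. Class IIa HDACs have weak deacetylase activity of their own. They sit on MEF2 proteins, recruit other repressors and keep MEF2 target genes silent until kinases phosphorylate them and 14-3-3 proteins hold them in the cytoplasm. HDAC9 is itself known as a MEF2 target in muscle, which makes it a textbook example of negative feedback.

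Windows that hold a MEF2 consensus word are printed 5′ to 3′ on the strand of the transcript, with the word in capitals. A further HDAC9 window is printed with its CAGCTG E-box in capitals, 154 bases before its start. Apart from the first HDAC9 window, the starts shown lie inside the annotated span of their gene.
HDAC9 (chr7:18086575-18086874, GRCh38.p14, plus strand): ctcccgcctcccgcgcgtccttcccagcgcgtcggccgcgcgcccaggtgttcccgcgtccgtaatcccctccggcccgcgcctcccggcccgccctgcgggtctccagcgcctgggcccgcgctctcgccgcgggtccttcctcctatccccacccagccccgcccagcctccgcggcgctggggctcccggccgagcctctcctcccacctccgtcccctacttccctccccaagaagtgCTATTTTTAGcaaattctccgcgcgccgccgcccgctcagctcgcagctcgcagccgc
MEF2A (chr15:99565734-99566033, GRCh38.p14, plus strand): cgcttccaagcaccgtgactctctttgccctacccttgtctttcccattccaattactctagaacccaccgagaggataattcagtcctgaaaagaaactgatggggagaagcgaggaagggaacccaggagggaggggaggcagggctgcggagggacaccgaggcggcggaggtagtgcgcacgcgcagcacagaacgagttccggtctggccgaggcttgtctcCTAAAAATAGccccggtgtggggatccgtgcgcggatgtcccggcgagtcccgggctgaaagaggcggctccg
MEF2C (chr5:88824295-88824594, GRCh38.p14, minus strand): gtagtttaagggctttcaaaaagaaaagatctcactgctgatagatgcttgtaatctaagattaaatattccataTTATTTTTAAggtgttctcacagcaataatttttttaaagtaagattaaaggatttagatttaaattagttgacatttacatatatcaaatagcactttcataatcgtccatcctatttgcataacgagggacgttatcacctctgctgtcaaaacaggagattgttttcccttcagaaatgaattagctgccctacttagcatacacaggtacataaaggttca
HDAC9, inner start (chr7:18495460-18495759, GRCh38.p14, plus strand): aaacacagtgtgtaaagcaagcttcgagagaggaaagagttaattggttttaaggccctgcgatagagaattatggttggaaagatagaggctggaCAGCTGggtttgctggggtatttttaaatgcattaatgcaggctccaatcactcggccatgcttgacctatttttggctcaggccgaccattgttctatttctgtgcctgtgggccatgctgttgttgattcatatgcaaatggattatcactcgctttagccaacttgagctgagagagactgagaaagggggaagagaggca

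The promoter sequences are shown because MEF2 proteins are known to act on promoters of their own family and of HDAC9. RefSeq windows (GRCh38.p14) that run from 250 bases before to 50 bases after a transcript start were held for 7 of the 8 members, 23 windows in all, and HDAC5 had no entry. The MEF2 consensus, a palindromic word of 10 letters, was found in 3 windows, 1 each of HDAC9, MEF2A and MEF2C. It lies in 2.99% of all 35116 windows and in at least 1 window of 3.67% of 27305 genes. In the HDAC9 window the word begins 8 bases before the annotated start, in MEF2A 23 bases before and in MEF2C 175 bases before. MEF2C had 7 windows, HDAC9 and HDAC4 had 5 each, MEF2A had 3 and the other members had 1, so the members did not have equal chances of a match. The E-box CANNTG, the element bound by MYOD and its partners, was found on either strand in 19 of the 23 windows and in 68.7% of all windows. Its form CAGCTG, which reads the same on both strands and is counted within CANNTG as well, lay in 7 windows of HDAC4, HDAC9, MEF2C and MEF2D, against 17.9% of all windows and 21.1% of genes. The 2 such windows of HDAC9 overlap and hold the same site. A word in a window is not a binding event, and binding was not measured in these libraries.

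Levels are given as TPM (transcript abundance scaled for length and brought to 1 fixed total per library), which allows levels of different genes to be compared. A change is the log2 ratio of shSKP2 to shSCR within a line after 1 TPM was added to each value, so changes of weakly expressed genes come out too small. The 12985 genes that averaged 1 TPM or more across the libraries were tested, and a gene was called where its change was at least 1, which is 2-fold, in either direction. All 8 members passed the filter, but HDAC9 passed it only through its shSKP2 libraries, since its mean in shSCR was 0.875 TPM. The number of reads behind a TPM value is unknown. Short structural RNAs took between 58.6% and 72.1% of the TPM, with a larger share in shSKP2 than in shSCR of either line. Across the tested genes the median change was -0.27 for RD and -0.21 for JR1, and for the members changes relative to that median are given beside the changes as deposited.

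SKP2, the target of the hairpin, was lower in the shSKP2 library of both lines. It stood at 92.8 TPM in RD shSCR and 7.40 TPM in RD shSKP2, and at 46.5 TPM in JR1 shSCR and 2.72 TPM in JR1 shSKP2. It fell by 3.48 in RD and by 3.67 in JR1 on the log2 scale. The libraries were of muscle lineage: MYOD1 lay between 87.0 and 131 TPM and CHRNA1, the muscle acetylcholine receptor subunit, between 196 and 425 TPM, although MYF5 was listed at 0 in all 4.

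MEF2C and HDAC9, which were among the lowest members in control cells, had the largest changes. MEF2C rose in JR1 and HDAC9 rose in both lines, whereas MEF2D and HDAC7, the most abundant member of each family, were not called in either line. In RD 1 of 8 members was called higher (1.08% of all tested genes) and none was called lower (7.37% of all tested genes). In JR1 3 of 8 were called higher, which were HDAC9, MEF2C and MEF2A (1.78% of all tested genes), and none was called lower (9.05%). Because the set was chosen on HDAC9 in these libraries, nothing is read from these shares. The median change of the 8 members was -0.08 in RD and 0.58 in JR1. Set against the median of all genes it was 0.19 and 0.79, so its sign in RD depends on the scaling.

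**Figure D1:**
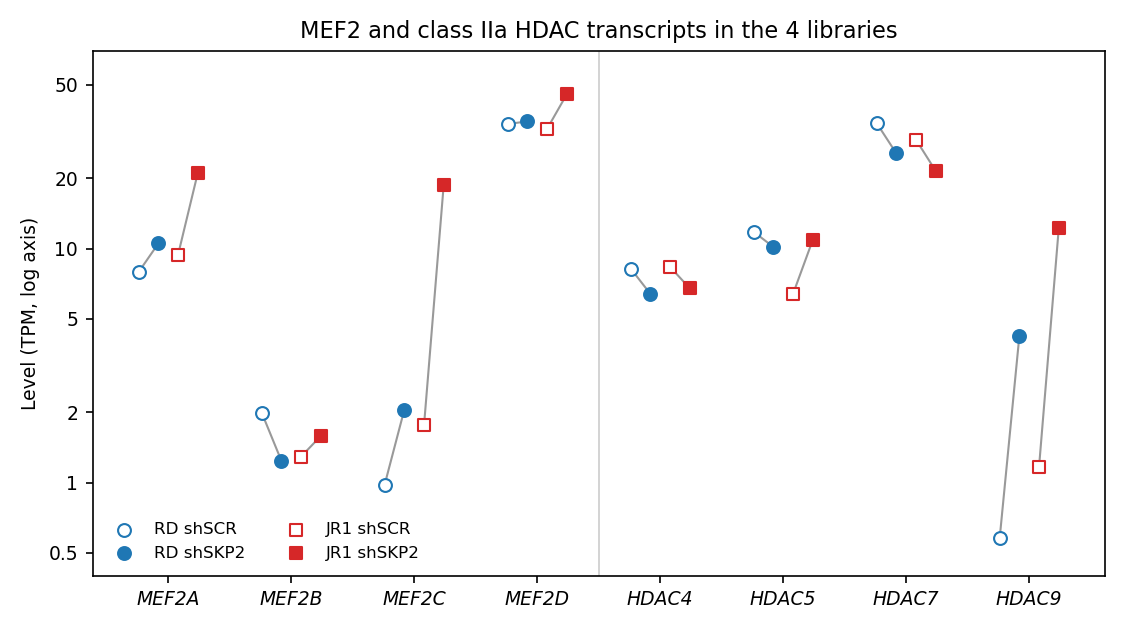
Level of each member in TPM (log axis) in the 4 libraries, with open symbols for shSCR and filled symbols for shSKP2, circles for RD and squares for JR1, and a grey line joining the libraries of a line. HDAC9 stands at 0.58 and 4.24 TPM in the RD libraries and at 1.17 and 12.2 TPM in those of JR1, and MEF2C reaches 18.7 TPM in JR1 shSKP2 alone.

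HDAC9, a class IIa deacetylase rich in muscle and brain, was at 0.58 TPM in RD shSCR, 4.24 TPM in RD shSKP2, 1.17 TPM in JR1 shSCR and 12.2 TPM in JR1 shSKP2. Both shSKP2 libraries lay above both shSCR libraries. The TPM ratio was 7.31 in RD and 10.4 in JR1. On the log2 scale HDAC9 rose by 1.73 in RD, place 45 from the top among the tested genes, and by 2.60 in JR1, place 29. Relative to the median of all genes the rises were 2.0 and 2.82. HDAC9 was 2.02 times higher in JR1 than in RD in shSCR cells and 2.87 times higher in shSKP2 cells. The gene spans 915592 bases (chr7:18086825-19002416, GRCh38) and has several start sites, among them those of a short form, MITR, which lacks the deacetylase domain. TPM per gene pool these forms, so which of them rose is not known from these files.

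The genes around HDAC9 were listed at or near 0. PRPS1L1, the nearest protein-coding gene on the side of its start, was at 0 in all 4 libraries. TWIST1, a mesenchymal transcription factor gene that lies 110631 bases beyond the other end, did not exceed 0.13 TPM. MIR1302-6, LOC107986698 and HDAC9-AS1, which overlap HDAC9, were also listed at 0 in every library.

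MEF2C, the MEF2 factor tied to skeletal and cardiac muscle development, was at 0.98 TPM in RD shSCR, 2.05 TPM in RD shSKP2, 1.76 TPM in JR1 shSCR and 18.7 TPM in JR1 shSKP2. The JR1 shSKP2 library stood far above the other 3. The TPM ratio was 2.09 in RD and 10.6 in JR1. The change was 0.62 in RD, under the limit, and MEF2C rose by 2.84 in JR1, place 22 from the top. Relative to the median the values were 0.89 and 3.05. With structural RNA genes left out the RD change was 1.18, past the limit, so the call in RD depends on the scaling. The lines differed by 2.22 in their change, a difference that could not be tested with 1 library per condition. MEF2C was 1.80 times higher in JR1 than in RD in shSCR cells and 9.14 times higher in shSKP2 cells.

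The genes next to MEF2C (chr5:88717117-88904105) were not called in either line. TMEM161B was at 2.69 TPM and 1.47 TPM in RD and at 3.03 TPM and 2.41 TPM in JR1, shSCR before shSKP2. CETN3, a centrin gene on the other side, was at 2.11 TPM and 1.61 TPM in RD and at 2.93 TPM and 2.31 TPM in JR1. Both were lower in shSKP2 cells in each line, as was the median of all tested genes (-0.27 in RD and -0.21 in JR1). TMEM161B changed by -0.58 in RD and -0.24 in JR1, and CETN3 by -0.25 in each line. The overlapping transcripts MEF2C-AS1, MEF2C-AS2 and LOC107986361 stayed at or under 0.13 TPM.

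MEF2A, a broadly expressed MEF2 factor, was at 7.94 TPM in RD shSCR, 10.5 TPM in RD shSKP2, 9.39 TPM in JR1 shSCR and 21.0 TPM in JR1 shSKP2. Both shSKP2 libraries were above both shSCR libraries. The change was 0.36 in RD, under the limit, and MEF2A rose by 1.08 in JR1, just past it. The values relative to the median were 0.63 and 1.29. LYSMD4, which overlaps the end of MEF2A (chr15:99565417-99716488), was lower in shSKP2 cells, with 5.10 and 3.95 TPM in the RD libraries and 3.69 and 3.43 TPM in those of JR1.

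MEF2D, the factor that dominates the family in these cells, was at 34.0 TPM in RD shSCR, 34.95 TPM in RD shSKP2, 32.4 TPM in JR1 shSCR and 45.6 TPM in JR1 shSKP2. Its changes were 0.04 in RD and 0.48 in JR1, both under the limit, and relative to the median 0.31 and 0.69. MEF2D is known to switch between a ubiquitous and a muscle splice form, which TPM per gene (chr1:156463727-156500840) cannot show. MEF2B, best known from lymphocytes, was at 1.99 TPM in RD shSCR, 1.24 TPM in RD shSKP2, 1.29 TPM in JR1 shSCR and 1.58 TPM in JR1 shSKP2. It stood at -0.42 in RD and at 0.17 in JR1 on the log2 scale, neither called and opposite in sign, and relative to the median at -0.15 and 0.39. MEF2B (chr19:19145567-19170263) shares exons with the readthrough gene BORCS8-MEF2B, and how reads were divided between them is uncertain. With both summed the changes were -0.40 and 0.44.

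The other class IIa HDACs were not called in either line. HDAC7, known from endothelial and lymphoid cells, was at 34.3 TPM in RD shSCR, 25.5 TPM in RD shSKP2, 29.1 TPM in JR1 shSCR and 21.4 TPM in JR1 shSKP2. Both shSKP2 libraries were below both shSCR libraries. The changes were -0.42 and -0.43, not called, and relative to the median of all genes -0.15 and -0.21. SLC48A1, a heme transporter gene that overlaps the edge of HDAC7 (chr12:47782722-47820612), was at -0.30 in RD and -0.07 in JR1, near the median of all genes in RD and above it in JR1.

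HDAC4, a repressor of MEF2 in muscle and cartilage, was at 8.21 TPM in RD shSCR, 6.40 TPM in RD shSKP2, 8.35 TPM in JR1 shSCR and 6.76 TPM in JR1 shSKP2. It changed by -0.32 in RD and by -0.27 in JR1, not called. Relative to the median it stood at -0.05 in both lines, close to genes at large. With structural RNA genes left out the RD change turned to 0.06. The transcripts that overlap HDAC4 (chr2:239048168-239401649) did not exceed 0.31 TPM. HDAC5, a signal-responsive repressor in heart and skeletal muscle, was at 11.8 TPM in RD shSCR, 10.2 TPM in RD shSKP2, 6.40 TPM in JR1 shSCR and 10.9 TPM in JR1 shSKP2. The JR1 shSCR library was the low one, and the other 3 lay close together. The change was -0.20 in RD, which turned to 0.07 relative to the median, and 0.68 in JR1, or 0.90 relative to the median. HDAC5 (chr17:44076753-44123651) is overlapped by LOC105371789, which was at 0.

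**Figure D2:**
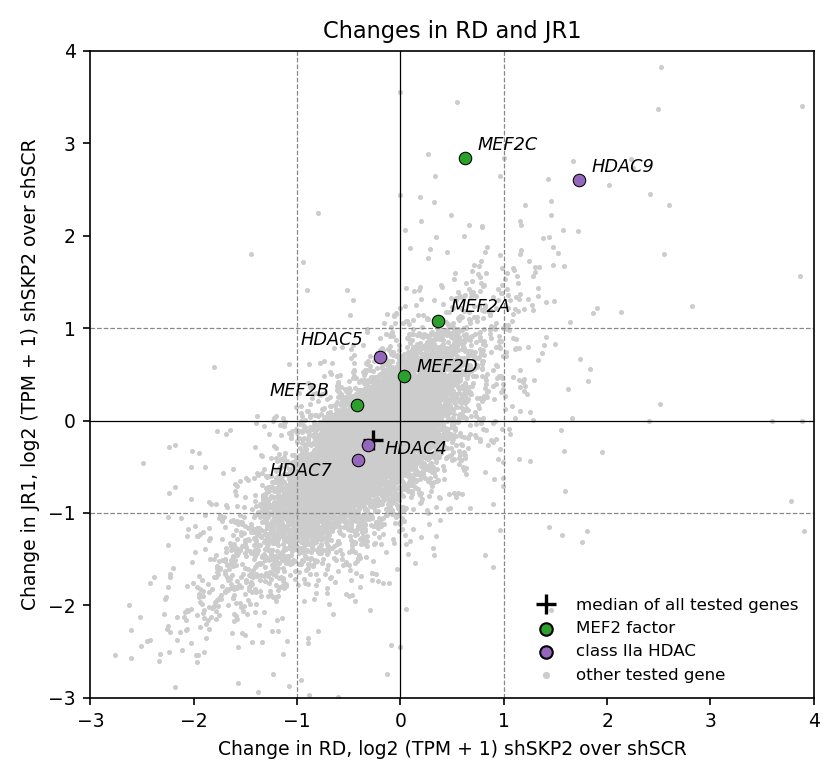
Change in RD (x axis) against change in JR1 (y axis), both as log2 (TPM + 1) of shSKP2 over shSCR, for the 12985 tested genes (grey, 68 of them outside the axes), with MEF2 factors in green and class IIa HDACs in purple. Dashed lines mark the limit of 1 and the cross marks the median of all genes. HDAC9 lies past the limit in both lines, MEF2C and MEF2A in JR1 alone, and HDAC4 lies beside the median.

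Totals and make-up of the families were compared next. The summed TPM of the 4 MEF2 factors were 44.9 in RD shSCR, 48.8 in RD shSKP2, 44.9 in JR1 shSCR and 86.8 in JR1 shSKP2. The sum was 1.09 times the control in RD and 1.93 times in JR1. On the log2 scale this is 0.12 and 0.94, and relative to the median 0.39 and 1.15. The class IIa HDAC sum was 54.9 in RD shSCR, 46.3 in RD shSKP2, 45.1 in JR1 shSCR and 51.2 in JR1 shSKP2, which is 0.843 and 1.14 times the control. The log2 changes were -0.24 and 0.18, and relative to the median 0.03 and 0.40. In bulk RNA, a change in the share of cells that express a gene and a change in RNA per cell cannot be told apart.

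Within the MEF2 family, MEF2D held 75.7% of the sum in RD shSCR and 71.7% in RD shSKP2, and 72.3% in JR1 shSCR and 52.5% in JR1 shSKP2. MEF2C held 2.18% and 4.21% in RD, and 3.92% and 21.6% in JR1. MEF2D exceeded MEF2C 34.7-fold in RD shSCR, 17.0-fold in RD shSKP2, 18.4-fold in JR1 shSCR and 2.43-fold in JR1 shSKP2. MEF2D was the highest MEF2 factor and MEF2A the next in all 4 libraries, while MEF2C passed MEF2B in the shSKP2 library of RD and in both libraries of JR1. Within the class IIa HDACs, HDAC7 held 62.5% in RD shSCR, 55.1% in RD shSKP2, 64.7% in JR1 shSCR and 41.8% in JR1 shSKP2. HDAC9 held 1.06% and 9.16% in RD, and 2.60% and 23.8% in JR1. HDAC9 was the lowest class IIa HDAC in 3 libraries and overtook HDAC4 and HDAC5 in JR1 shSKP2. The ratio of class IIa HDAC to MEF2 transcripts was 1.22 in RD shSCR, 0.949 in RD shSKP2, 1.00 in JR1 shSCR and 0.590 in JR1 shSKP2, lower in shSKP2 in each line. These shares and ratios hold no library scale, so the structural RNAs do not bear on them.

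The lines were also compared in control cells. No member was called between RD and JR1 in shSCR, where 6.5% of all tested genes were called higher in RD and 3.45% lower. HDAC5 was 1.84 times higher in RD (0.79 on the log2 scale). HDAC9 and MEF2C were 2.02 and 1.80 times higher in JR1, which is 0.46 and 0.48 lower in RD on the log2 scale with 1 TPM added. The order of these differences depends on the pseudocount and on the scaling, since relative to the median HDAC5 stood at 0.56, MEF2C at -0.71 and HDAC9 at -0.69. HDAC4 was lower in RD by 0.02.

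Genes whose profile over the 4 libraries was most like those of HDAC9 and MEF2C were sought by the Euclidean distance of log2(TPM + 1) values centred on each gene's mean, with 4 libraries of 2 lines as the points. The nearest to HDAC9 was NEURL1, a ubiquitin ligase gene, at a distance of 0.335, with 0.59 TPM and 3.38 TPM in RD and 1.16 TPM and 9.10 TPM in JR1. KLHL41, a kelch protein of the sarcomere, and C1orf105 followed at 0.474 and 0.477. The nearest to MEF2C was CKM, muscle creatine kinase, at 0.304, with 2.92 TPM and 6.65 TPM in RD and 5.01 TPM and 36.7 TPM in JR1. GJA5, a connexin gene, and CACNG1, a subunit of the skeletal muscle calcium channel, followed at 0.367 and 0.402. GJA5 was at 0.09 and 0.31 TPM in RD and at 0.10 and 7.13 TPM in JR1, shSCR before shSKP2. CACNG1 was at 0 and 0.25 TPM in RD and at 0.40 and 6.23 TPM in JR1. NEURL1, GJA5 and CACNG1 passed the filter, like HDAC9, through their shSKP2 libraries alone. At such low levels the distances depend on the 1 TPM added. HDAC9 was in place 34 among the neighbours of MEF2C, and MEF2C in place 40 among those of HDAC9, at a distance of 1.06.

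The genes that act with these members were described by list. Of 17 tested kinases of class IIa HDACs, none was called in RD and CAMK2A alone in JR1, a number too small to set apart from the 1.78% of all genes called higher there. CAMK2A, a calcium/calmodulin-dependent kinase, was at 0.12 TPM and 0.67 TPM in RD and at 0.97 TPM and 4.0 TPM in JR1, a change of 0.58 and a rise of 1.34. It passed the filter, like HDAC9, only through its shSKP2 libraries. With structural RNA genes left out its RD change was 1.29, past the limit. The lowest kinases were CAMKK1 in RD (-0.86) and PRKD2 in JR1 (-0.60). Of 7 tested genes for 14-3-3 proteins and nuclear export 1 was called lower in RD, where 7.37% of all tested genes were. This was YWHAE, which encodes a 14-3-3 protein and fell in RD (-1.08) and was at -0.87 in JR1. Relative to the median the RD value was -0.81 and not past the limit, and YWHAG was the highest of the list at 0.28 and 0.42.

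Of 16 tested genes for MEF2-activating kinases and calcineurin signalling, NFATC2, a calcineurin-dependent transcription factor, fell in JR1 (-1.40) and was at -0.73 in RD. RCAN1, an inhibitor of calcineurin, was the highest in RD (0.54), and PPP3CC, a calcineurin catalytic subunit, the highest in JR1 (0.84). Over all tested genes 1.08% were called higher and 7.37% lower in RD, and 1.78% and 9.05% in JR1. Counts in lists of 16, 14 and 7 genes are too small to set apart from these shares. Of 14 tested corepressors and coactivators none was called in either line. The lowest was RFXANK, an ankyrin protein, at -0.98 and -0.88, and the highest were CREBBP in RD (-0.14) and CBX5 in JR1 (0.20). None of the 7 other HDACs was called. HDAC1 was the highest of them at -0.04 and 0.14, HDAC6 the lowest in RD (-0.70) and HDAC10 the lowest in JR1 (-0.55). Their medians were -0.24 in RD and -0.13 in JR1, close to those of all genes.

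The muscle target list was written with some of its rises, such as those of MYOM1 and SMYD1, already known, so its direction is not independent evidence. Of its 30 genes 22 were tested, and of these 7 were called higher and 1 lower in RD, and 11 higher and 1 lower in JR1, with medians of 0.78 and 1.04. Over all tested genes 1.08% were called higher and 7.37% lower in RD, and 1.78% and 9.05% in JR1. MYOM1, MYOM2, MYOZ1, XIRP2 and LMOD3 passed the filter, like HDAC9, through their shSKP2 libraries alone. LMOD3 is among the genes called higher in JR1 (1.35), and nothing is read from the counts or the medians. The list genes called higher in both lines were MYOM1, MYOZ2, SMYD1, XIRP2, KLHL41, HRC and MYPN. MYOM1, a protein of the sarcomeric M band, was the highest, at 0.32 TPM and 6.43 TPM in RD and at 1.21 TPM and 21.9 TPM in JR1. SMYD1, a muscle methyltransferase, was at 1.55 TPM and 11.0 TPM in RD and at 4.55 TPM and 38.5 TPM in JR1. MEG3, a long noncoding RNA, was the 1 gene called lower in both lines, by 1.43 and 1.18, although relative to the median its JR1 change was -0.97. DES, a muscle intermediate filament gene, was at 0.14 in RD and -0.50 in JR1, neither called.

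Of 12 tested stimulus-responsive targets of MEF2, 2 were called lower in RD, where 7.37% of all tested genes were, and 3 in JR1, where 9.05% were. KLF2 was called higher in JR1. Falls outnumbered rises among all tested genes too, with 957 against 140 in RD and 1175 against 231 in JR1. KLF4, a zinc finger factor, was at 75.3 TPM and 10.2 TPM in RD and at 47.7 TPM and 7.41 TPM in JR1. FOS, an immediate early gene, was at 93.5 TPM and 24.4 TPM in RD and at 110 TPM and 24.1 TPM in JR1. KLF4 and FOS fell in both lines, and ATF3, a stress response factor, fell in JR1 (-1.12). KLF2, a relative of KLF4, was the highest of the list, at 0.05 in RD, and rose by 1.43 in JR1.

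Markers of other cells in which some members are abundant were examined beside these results. The endothelial list summed to 6.77 and 4.78 TPM in RD and to 6.64 and 3.93 TPM in JR1, shSCR before shSKP2, mostly from TEK. TEK, its 1 tested gene, was at -0.75 in RD and -0.88 in JR1 on the log2 scale, neither called. KDR was at 0 in all 4 libraries. CLDN5 of that list was not tested and went the other way. It stood at 0.12 and 0.95 TPM in RD and at 0.83 and 1.24 TPM in JR1, shSCR before shSKP2. The B cell list, set beside MEF2B, summed to between 0.05 and 0.92 TPM. The cardiac list, set beside MEF2C, summed to between 14.4 and 19.0 TPM, nearly all from NKX2-5, with TBX5 at 0. The neuron list, set beside HDAC9, summed to 231 TPM in RD shSCR and 349 TPM in RD shSKP2. In JR1 it summed to 238 and 246 TPM, and nearly all came from TUBB3 in both lines. TUBB3 was at 0.60 in RD and 0.05 in JR1 on the log2 scale. SNAP25, the other tested gene of that list, went the other way, at -0.65 and -0.48. The skeletal muscle lineage list summed to 419 and 579 TPM in RD and to 603 and 812 TPM in JR1, shSCR before shSKP2. Of the 8 genes of that list 6 were tested, and as deposited none was called in either line. MYOG was its highest change, at 0.87 in RD and 0.98 in JR1, and CHRND, another acetylcholine receptor subunit, its lowest, at -0.76 and -0.60. Relative to the median of all genes MYOG passed the limit, at 1.14 in RD and 1.19 in JR1. With structural RNA genes left out MYOG again passed it in both lines, and CHRNA1 passed it in RD (1.09). The calls in that list therefore depend on the scaling. The part of the neuron and muscle lineage genes in the rise of HDAC9 was not tested.

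The scaling of TPM set the sign of some small changes and the call of MEF2C in RD, while HDAC9 was called under each scaling in both lines. With structural RNA genes left out, HDAC9 rose by 2.61 in RD and 3.31 in JR1, MEF2C by 1.18 and 3.45, and MEF2A was at 0.79 in RD and rose by 1.39 in JR1. HDAC7 was then at -0.01 in RD and -0.18 in JR1, and MEF2D at 0.45 and 0.75.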

How the data were processed

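Poly-A RNA of RD and JR1 cells was read as pairs of 150 bases. STAR 2.7.9a (GRCh38) served the authors for alignment, and the deposited TPM per gene came from RSEM 1.3.2, 1 library per line and condition. TPM hold no read counts, so depth and counting error are unknown. Gene coordinates came with the deposited TPM. Promoter windows and gene types came from RefSeq, and 36588 of 39323 gene names matched its list of gene types. Changes, the filter and the limit are as defined above. Alternatives were a pseudocount of 0.1 TPM, centring on the median of tested genes, leaving out 1059 structural RNA genes or keeping 19077 protein-coding genes with TPM rescaled, no filter, a minimum mean of 5 TPM and a limit of 1.5-fold. The sum of MEF2B and BORCS8-MEF2B was chosen after seeing the data. Members and lists were chosen with earlier results of these data known. Named genes were the members, SKP2, the extremes of each list, genes called in both lines, overlapping and neighbouring genes, and the 3 nearest profiles. DES, ATF3 and the single marker genes were named after their values were seen. The scripts were tested on simulated data. Python 3.11.15, numpy 2.4.6, pandas 2.3.3 and matplotlib 3.10.9 were used.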

Additional observations from a re-analysis of the deposited data

Results flagged for a closer look

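MEF2B and HDAC5 were flagged because their changes had opposite signs in RD and JR1. The change of MEF2B in JR1 was 0.59 above that in RD, and that of HDAC5 was 0.88 above. Neither difference was tested, since each line has 1 library per condition. For HDAC5 the signs were the same once changes were centred on the median of all genes or structural RNA genes were left out, and for MEF2B they stayed opposite.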

How the results depend on the processing

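HDAC9 in both lines, MEF2C and MEF2A in JR1, and SKP2 in both lines kept their direction and stayed past the limit at a pseudocount of 0.1 TPM and under the 3 other scalings. Other values depended on the setting, and beyond what the settings change by construction the cause was not tested. Values follow the order centred, structural RNA genes left out, protein-coding genes alone, unless stated. The RD change of HDAC5 became 0.0718, 0.20 and 0.21, that of the class IIa HDAC sum 0.0281, 0.17 and 0.18, and that of HDAC4, in the last 2 settings, 0.0573 and 0.066. MEF2C in RD passed the limit in the last 2, at 1.18 and 1.19, and at 0.62 with a limit of 1.5-fold. The MEF2 sum in JR1 passed it at 1.15, 1.21 and 1.21, and at 0.94 with a limit of 1.5-fold, which HDAC5 in JR1 (0.68) and HDAC5 between control lines (0.79) also passed. Members called higher in RD were 2 in the last 2 settings and at 1.5-fold, and 0 at a minimum mean of 5 TPM, which drops HDAC9 and MEF2B. Between control lines the sign turned for MEF2D (-0.17, -0.23, -0.24), HDAC7 (-0.0024, -0.0679, -0.0696), the MEF2 sum (-0.23, -0.30, -0.30) and, in the last 2, the class IIa HDAC sum (-0.0198, -0.0215).

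List medians, taken relative to all tested genes, lay between -0.26 (stimulus-responsive targets in JR1) and 0.17 (corepressors in JR1) apart from the muscle targets, and several changed sign. For class IIa HDAC kinases the RD value of -0.0083 became 0.0096 at 0.1 TPM, 0.0015 without structural RNA genes, 0.023 for protein-coding genes and 0.0071 at 5 TPM, and the JR1 value became -0.045 with no filter. For 14-3-3 proteins in JR1 it became 0.0166 at 0.1 TPM, 0.0168 and 0.0210 in the last 2 scalings, and for corepressors in RD 0.011 and 0.033. With no filter the other HDACs were at -0.19 in RD and -0.10 in JR1, and the MEF2-activating kinases at -0.0808 and -0.0928. The muscle targets, at 1.05 in RD and 1.25 in JR1 with the filter, were at 0.53 and 0.80 without it. At 5 TPM the other HDACs in RD were at -0.0088 and the stimulus-responsive targets in RD at 0.095.

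Muscle targets called higher in RD, 7 as deposited, were 11 at 0.1 TPM, 12, 15 and 15 in the 3 scalings and 14 at 1.5-fold. Their 1 lower call in each line was MEG3, a noncoding gene. The setting with protein-coding genes alone leaves MEG3 out by construction, so the count there was 0. When centred and without structural RNA genes the call became 0 in JR1 (-0.97 and -0.95) and stayed in RD (-1.16 and -1.06). Stimulus-responsive targets called lower became 4 in RD and 5 in JR1 at 0.1 TPM, and 5 in each line at 1.5-fold. In the other lists, counts of 0 or 1 moved between 0, 1, 2 and 3.

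Over all genes, calls higher in RD ranged from 87 to 677 and in JR1 from 143 to 747, and calls lower from 458 to 3011 and from 710 to 3041. Higher calls were 140 against 957 lower in RD and 231 against 1175 in JR1 as deposited, and 677 against 527 and 747 against 1143 without structural RNA genes. The labels give no replicate numbers to block on. Every change is a pair within a line, and a model that takes the lines as replicates was not run.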
